A study of Mus musculus with 9 samples.

Results

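Dental papilla cells of C57BL/6 mice grown as spheres were compared with the same kind of cells grown as a monolayer, across all genes of the deposited table. The comparison used the 3 sphere libraries and the 3 monolayer libraries of a series of 9 RNA-seq libraries; the 3 libraries of primary cells were not part of it. Of 53353 entries in the table, 23516 had at least 1 count in these 6 libraries and 15118 passed a filter on low counts and were tested. Per the labels' protocols, spheres were seeded at passage 2 on low-attachment plates in basal medium thickened with methylcellulose, whereas the monolayer medium also held 2% serum and 1% growth supplement, so that attachment and medium differ together. Both source labels say 8 days, but the growth protocol gives 8 days for spheres and 14 days for the monolayer. The labels name no cell line, genotype or cell sort. Whether each library is a culture or animal of its own is not stated, so the p-values reflect library-to-library spread alone, and that may be technical.

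The dental papilla is the mesenchyme enclosed by the tooth germ, and its cells form the pulp and the odontoblasts. Odontoblasts and osteoblasts lay down collagen and then acidic phosphoproteins that bind calcium and help to order mineral, while phosphatases and endopeptidases set the supply of phosphate. On a culture plate, mesenchymal cells spread, build stress fibres and focal adhesions and sense stiffness, whereas in suspended spheres they attach mainly to each other.

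Total counts in genes were 35957376 to 50823554 in spheres and 43935018 to 52047254 in monolayer. Levels are CPM, which are counts relative to the TMM-scaled library size, and means are given ± SD over n = 3 libraries per group throughout. A count of 0 over a group allows up to 3 counts, which is 0.0199 CPM over the sphere libraries and 0.0238 CPM over the monolayer libraries; such limits and the intervals in parentheses after ratios, which are 95% exact binomial intervals, cover counting error only. Across genes (not independent replicates), Pearson's r was 0.993 to 0.9946 within a group and 0.8222 to 0.8234 between groups. In bulk libraries, fewer cells of a type and less RNA per cell cannot be told apart.

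Of the 15118 genes, 5956 were higher in spheres (39.4%) and 5830 were lower (38.6%), 78% in all, in edgeR's quasi-likelihood test at an adjusted p of 0.05. Changes tested against 2-fold were called for 1872 genes that were higher (12.4%) and 2339 that were lower (15.5%). For 79.4% of the genes every sphere library lay on the same side of every monolayer library. With shares this high, a passing gene is the usual case, and the sizes of the changes carry more than the calls. Counts of called list members and statements that groups did not overlap are to be read against these shares. For the 12 largest increases and decreases, groups that do not overlap were a condition of the choice. The median log2 change over all genes tested was 0.018. Scaling to total counts in place of TMM moved every gene up by about 0.334 on the log2 scale. It gave 8413 higher and 3961 lower genes, so that 68% of the called genes were higher instead of 50.5%. Named genes whose direction turns with this scaling are given below. This scaling also turned the sign of the median of 6 gene lists and shifted the balance of higher and lower members in others.

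**Figure D1:**
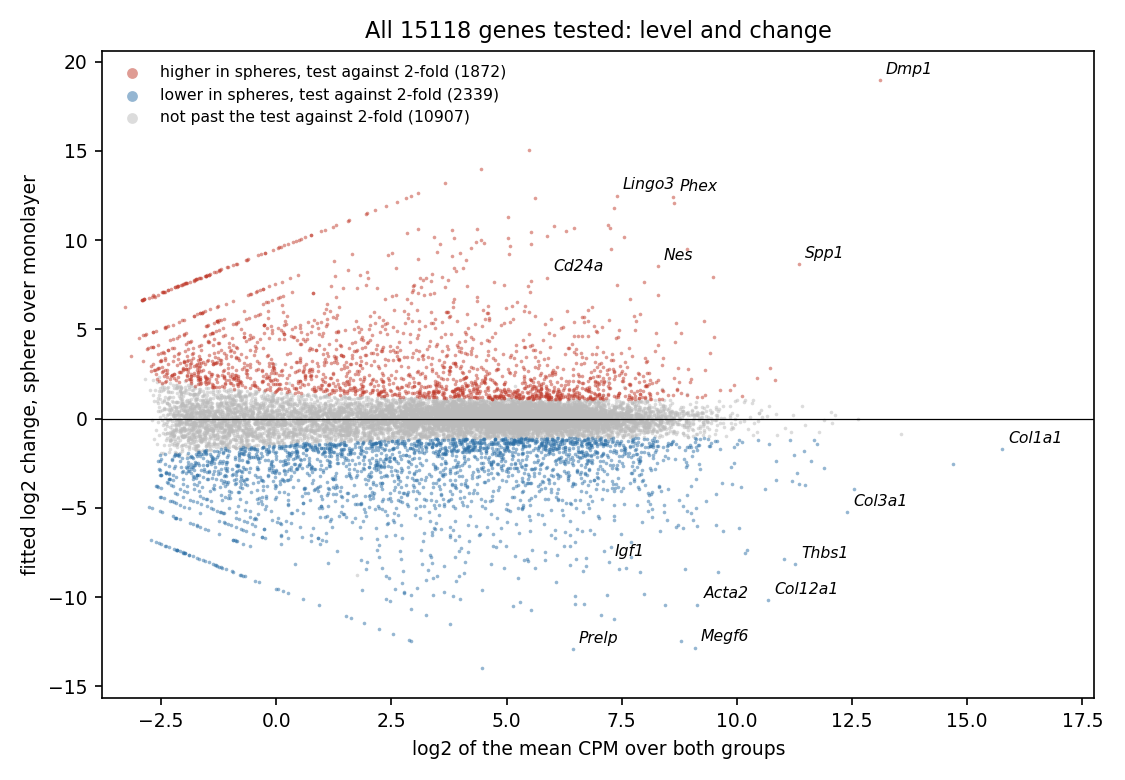
Fitted log2 change of sphere over monolayer (vertical) against the log2 of the mean CPM over both groups (horizontal), 1 point per gene tested, coloured by the test against 2-fold. Red points (1872 genes) were higher in spheres and blue points (2339) lower; the outermost slanted rows of points are genes without a count in 1 group, and Dmp1 is the highest point.

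Genes past the 2-fold test in the upward direction took 17.63 to 17.72% of all counts in the sphere libraries and 2.627 to 2.653% in the monolayer libraries. Those past it in the downward direction took 10.22 to 10.44% in spheres and 39.69 to 40.32% in monolayer. The 10 most abundant genes held 9.87 to 9.993% of the counts in spheres and 17.12 to 17.83% in monolayer. The collagen genes Col1a1 and Col1a2 and the matrix gene Sparc were among the 10 in each group, as was the elongation factor gene Eef1a1, which did not pass the test (6284 ± 124 in spheres and 6436 ± 149 CPM in monolayer, adjusted p = 0.301). Dmp1, Spp1, the elongation factor gene Eef2, the cathepsin gene Ctsb and the matrix metalloproteinase genes Mmp14 and Mmp2 completed the list in spheres. In monolayer it was completed by the plasma glutathione peroxidase gene Gpx3, the actin-severing gelsolin gene Gsn, and Col3a1, Col4a1, Col5a1 and Col5a2. Gpx3 had 709, 707 and 709.5 in spheres, against 11280, 10869 and 11289 CPM in monolayer (log2 change -3.98). Gsn fell to 962 ± 39.9 in spheres, against 6678 ± 279 CPM in monolayer.

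Cd24a, the gene of the surface glycoprotein named in the title of the series, had 119, 117 and 114 in spheres, against 0.237, 0.536 and 0.724 CPM in monolayer. All 3 sphere libraries lay above all monolayer libraries (log2 change 7.90, adjusted p = 8.39e-25 in the quasi-likelihood test). The gene lies on chromosome 10, 43578284 to 43584265, GRCm38. At 100 CPM or more in the higher group, the largest increases included Lingo3, a membrane protein gene, with 335 ± 31.6 in spheres and 0.0551 ± 0.00851 CPM in monolayer, a ratio of 6090 (2960 to 15200). Adamtsl2, a gene of fibrillin-binding matrix, rose to 131 ± 6.55 in spheres, against 0.0723 ± 0.0432 CPM in monolayer, a ratio of 1850 (973 to 4040). The largest decreases included Megf6, which fell to 0.148 ± 0.0243 in spheres, against 1086 ± 67.8 CPM in monolayer. Ly6a, the surface antigen Sca-1, fell to 0.172 ± 0.158 in spheres, against 179 ± 3.82 CPM in monolayer. At 10 CPM or more in a group, 8612 genes were present in spheres, 8672 in monolayer and 7871 in both. A further count gave 51 genes at 10 CPM or more in spheres and under 0.1 CPM in monolayer, and 40 the other way round.

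The labelled tissue was checked against its markers. All 12 tooth mesenchyme markers were detected in every library, with 2 higher, 8 lower and 2 not passing, and Lhx8, a transcription factor of first-arch and tooth mesenchyme, had 30.1, 27.9 and 28.8 in spheres, against 69.5, 68.9 and 73.2 CPM in monolayer. Markers of other cell types were summed over each list. The summed level of the epithelial markers was 728.8 to 737.5 CPM in spheres and 30.14 to 33.14 CPM in monolayer, with 14 of 16 tested markers higher, 1 lower and 1 not passing. The lower one, Trp63, did not pass without sphere replicate 1 or 3 or without monolayer replicate 3 (adjusted p = 0.0584 to 0.0823), nor with total-count scaling (0.0617). Most of the sum came from Ambn, which encodes the enamel and root matrix protein ameloblastin, at 501 ± 5.82 in spheres and 2.43 ± 0.4 CPM in monolayer. The defining epithelial genes differed in level: the adhesion gene Epcam had 42.3, 41.6 and 39.2 in spheres, against 0, 0.0488 and 0.0259 CPM in monolayer, a ratio of 1720 (588 to 8330). Krt14 had 6.94 ± 0.333 in spheres and 0.289 ± 0.0882 CPM in monolayer. Krt5 had 2.3 ± 0.1 in spheres and 0.171 ± 0.0582 CPM in monolayer, and Cdh1 and Trp63 stayed under 1 CPM in both groups. Klk4, the kallikrein protease of maturing enamel, chosen after its values were seen, had 104, 94.8 and 96.3 in spheres, against 0.0432, 0 and 0 CPM in monolayer, a sphere to monolayer ratio of 6170 (1710 to 50900). Macrophage and leukocyte markers summed to 52.22 to 55.07 CPM in spheres and 14.8 to 17 CPM in monolayer, with 10 of 12 higher and 2 lower; Ptprc, the leukocyte antigen gene, was at 0.758 ± 0.231 in spheres and 0.0704 ± 0.0175 CPM in monolayer. Endothelial markers summed to 4.973 to 5.437 CPM in spheres and 28.13 to 29.53 CPM in monolayer, with 2 of 5 higher and 3 lower; the VEGF receptor gene Kdr made up most of the sum in monolayer (0.385 ± 0.0637 in spheres and 26.9 ± 0.605 CPM in monolayer), and Cdh5 had too few counts to be tested. Pericyte markers summed to 510 to 556.3 CPM in spheres and 1074 to 1134 CPM in monolayer, with 3 of 7 higher and 3 lower. Of these, Pdgfrb, a PDGF receptor gene that mesenchymal cells also express, fell to 25.5 ± 1.71 in spheres, against 935 ± 24 CPM in monolayer. Cspg4 rose to 499 ± 21.8 in spheres, against 163 ± 9.03 CPM in monolayer. Osteoclast markers summed to 1077 to 1102 CPM in spheres and 1180 to 1211 CPM in monolayer, with 2 of 3 lower and none higher, and nearly all of the sum came from the cathepsin K gene Ctsk (1091 ± 13.4 in spheres and 1193 ± 15 CPM in monolayer), which turned upward with total-count scaling. Chondrocyte markers summed to 58.18 to 61.15 CPM in spheres and 70.98 to 72 CPM in monolayer, with 1 of 5 higher and 4 lower. The higher one, Sox9, made up most of the sum in spheres (54.6 ± 1.33 in spheres and 32.8 ± 1.67 CPM in monolayer). Adipocyte markers summed to 9.003 to 10.13 CPM in spheres and 65.61 to 70.54 CPM in monolayer, with 1 of 2 higher and 1 lower. The lower one, Pparg, made up nearly all of the sum in monolayer. The erythroid and skeletal muscle lists stayed near or under 1 CPM. The part of these cell types in the changes described here was not tested.

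Mineral matrix genes were far higher in spheres. Of 12 tested, 10 were higher and 2 lower, with a median log2 change of 5.79 against 0.018 over all genes. Dmp1, whose acidic phosphoprotein binds calcium, had 17946, 17367 and 17409 in spheres, against 0.0648, 0 and 0.0259 CPM in monolayer. In spheres it was the second most abundant gene, and its 4 monolayer counts give a sphere to monolayer ratio of 552000 (216000 to 2030000). Ibsp, bone sialoprotein, had 1436, 1420 and 1402 in spheres, against 5.83, 5.93 and 5.92 CPM in monolayer. Spp1, osteopontin (with 21.1% of its span shared with other genes), had 5218, 5289 and 5130 in spheres, against 13.4, 12.9 and 12 CPM in monolayer. The groups did not overlap for either gene (241-fold and 409-fold in mean CPM). Dspp, which encodes the major phosphoprotein and sialoprotein of dentin, had 93.1, 88.2 and 88.9 in spheres, against 0, 0 and 0 CPM in monolayer, at least 3782-fold higher in spheres. Mepe, another matrix phosphoglycoprotein, had 27.1, 29.4 and 28.5 in spheres, against 0, 0.0488 and 0 CPM in monolayer, a ratio of 1790 (495 to 14800). The osteocalcin genes Bglap (5.71 on the log2 scale) and Bglap2 (4.91) rose, but they are near-identical copies whose reads may be split. The members that fell were Mgp, the matrix Gla protein that inhibits mineral formation, at 0.305 ± 0.095 in spheres and 9 ± 0.088 CPM in monolayer, and Sparc, osteonectin (-0.84).

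Of 14 regulators of phosphate and mineral, 10 were higher and 4 lower. The endopeptidase gene Phex, mutated in X-linked hypophosphataemia, had 816, 783 and 761 in spheres, against 0.108, 0.0975 and 0.233 CPM in monolayer. The kinase gene Fam20c, which phosphorylates secreted matrix proteins, had 1183, 1221 and 1288 in spheres, against 27.8, 26.7 and 29.2 CPM in monolayer. Their mean CPM was 5383-fold and 44.2-fold higher in spheres. The pyrophosphate-making enzyme gene Enpp1 rose to 21.1 ± 0.288 in spheres, against 0.631 ± 0.104 CPM in monolayer. The citrate transporter gene Slc13a5 rose to 21 ± 0.953 in spheres, against 2.19 ± 0.238 CPM in monolayer. The phosphate transporter genes Slc20a1 (with 47.4% of its span shared with other genes) and Slc20a2 rose by 0.24 and 0.77 on the log2 scale, and Vdr, the vitamin D receptor gene, by 0.75. Fgf23, the phosphate-lowering hormone gene that Phex restrains in bone, was at 3.76, 3.32 and 3.04 in spheres, against 0, 0 and 0 CPM in monolayer, at least 142-fold higher. Alpl, the alkaline phosphatase gene that frees phosphate from pyrophosphate, was 227 ± 4.7 in spheres and 257 ± 11.2 CPM in monolayer (log2 change -0.17), a direction that turned upward with total-count scaling. Pth1r, the parathyroid hormone receptor gene with 21.1% of its span shared with other genes, fell by 1.97. Of the genes that steer osteoclasts, Tnfrsf11b, the RANK ligand decoy osteoprotegerin, rose (308 ± 1.53 in spheres and 53 ± 3.04 CPM in monolayer) and Csf1, the macrophage growth factor, fell (15.3 ± 0.0848 in spheres and 439 ± 11.4 CPM in monolayer).

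Transcription factors of the tooth mesenchyme moved in both directions, with 10 of 24 higher, 11 lower and 3 not passing (median 0.06). With total-count scaling 12 were higher and 7 lower. Among those that rose, Sp7 (osterix) had 852, 840.1 and 869.6 in spheres, against 128, 120.4 and 129.9 CPM in monolayer. Dlx3, linked to hair, tooth and bone defects, had 238 ± 6.76 in spheres and 27.2 ± 1.69 CPM in monolayer. Sphere libraries were the higher ones throughout. Sp6, the epiprofin gene with 37.3% of its span shared with other genes, rose to 22.4 ± 2 in spheres, against 2.53 ± 0.441 CPM in monolayer. Among those that fell, Pax9, needed for tooth buds to advance, had 43.6, 40.8 and 44 in spheres, against 292, 282 and 299 CPM in monolayer. Prrx2 fell to 57.4 ± 3.63 in spheres, against 431 ± 19.6 CPM in monolayer. Twist1, an inhibitor of Runx2, fell to 45.2 ± 0.469 in spheres, against 166 ± 9.56 CPM in monolayer. Here the monolayer libraries were the higher ones. Runx2 itself, the master factor of bone, did not pass (167 ± 5.36 in spheres and 174 ± 5.96 CPM in monolayer, adjusted p = 0.165, or 0.0311 without monolayer replicate 2), while its relatives diverged, with Runx1 at a log2 change of 2.39 and Runx3 at -1.80. All 4 tested Iroquois homeobox genes rose. Irx5 had 315, 324 and 352 in spheres, against 13.7, 12.6 and 14.8 CPM in monolayer. Irx3, with 46.7% of its span shared with other genes, had 101 ± 8.21 in spheres and 10.3 ± 1.57 CPM in monolayer. None of the 39 Hox genes had enough counts to be tested. Forkhead genes gave 11 higher and 11 lower of 23, or 13 and 7 with total-count scaling. Foxe3 had 40.6 ± 3.04 in spheres and 0.036 ± 0.0623 CPM in monolayer, a ratio of 1030 (442 to 3180). Foxd2 rose by 1.76, whereas Foxf2 (-1.22) and Foxq1 (-1.83, with 66.1% of its span shared with other genes) fell. Among Sox genes Sox12 and Sox9 rose (1.55 and 0.74) and Sox5 and Sox11 fell (-2.82 and -1.24); the list's median, -0.078, became 0.25 with total-count scaling.

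**Figure D2:**
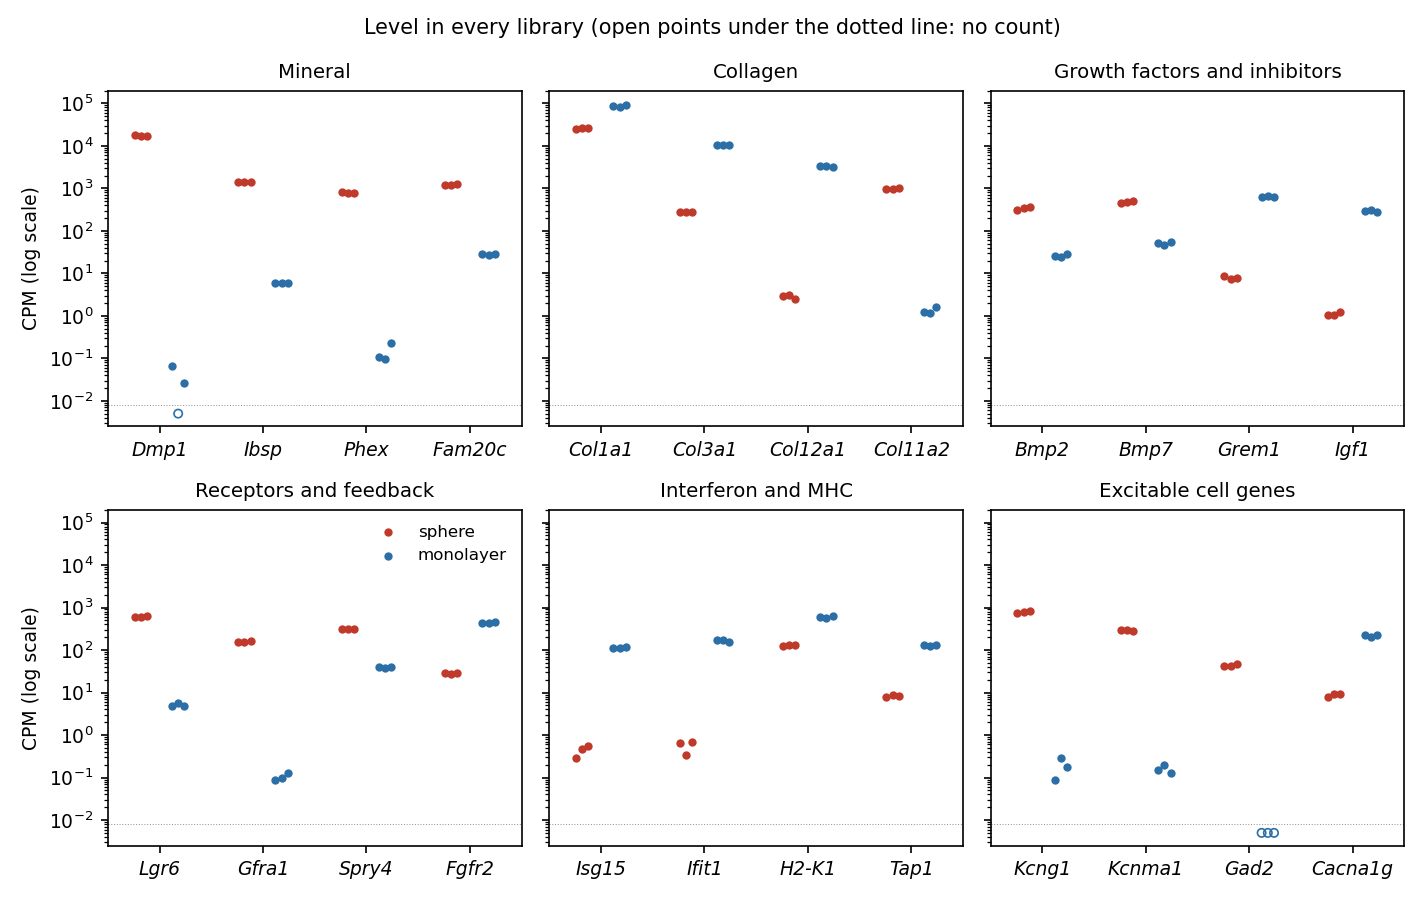
CPM on a log axis for 24 genes, with 3 sphere libraries (red, left) and 3 monolayer libraries (blue, right) per gene; open points under the dotted line are libraries without a count. In every gene shown the groups stand apart by more than the spread of their libraries, for example H2-K1 with 129.8 CPM in spheres against 597 CPM in monolayer.

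Collagen genes fell as a family but not in every member: 27 of 38 were lower, 8 higher and 3 not passing, with a median log2 change of -2.47. The chains of type I, the main collagen of dentin and bone, were the most abundant in both groups. Col1a1 had 24884, 25866 and 26762 in spheres, against 84827, 80706 and 89740 CPM in monolayer (log2 change -1.72, adjusted p = 2.31e-20). Col1a2 had 7409, 7646 and 7925 in spheres, against 45353, 44432 and 46244 CPM in monolayer (log2 change -2.56, adjusted p = 1.21e-26). Both lay wholly below the monolayer. Type III fell more, with Col3a1 at 272, 279 and 284 in spheres, against 10542, 10329 and 10557 CPM in monolayer, 37.7-fold lower, as did the microfibril-forming type VI chains Col6a1 (-3.43), Col6a2 (-3.94) and Col6a3 (-5.21). The largest falls in the list were those of Col12a1 and Col8a2. Col12a1, a collagen on the surface of fibrils, had 3, 3.13 and 2.49 in spheres, against 3311, 3327 and 3239 CPM in monolayer. Col8a2, a short-chain collagen, had 0.123, 0.372 and 0.371 in spheres, against 289.9, 281 and 299 CPM in monolayer. Both were near or under 3 CPM in spheres. The basement membrane pair Col4a1 and Col4a2, which share a promoter region on chromosome 8, fell together (-3.72 and -3.52). Type XI diverged within 1 heterotrimer: Col11a1 fell to 14.2 ± 0.19 in spheres, against 2370 ± 5.51 CPM in monolayer. Col11a2 had 939.8, 955 and 1005 in spheres, against 1.23, 1.17 and 1.63 CPM in monolayer. The transmembrane collagen genes also rose, Col13a1 to 66.8, 64.3 and 65.7 in spheres, against 0, 0.0732 and 0 CPM in monolayer, a ratio of 2750 (941 to 13300), and Col25a1 to 15 ± 0.866 in spheres, against 0.165 ± 0.0608 CPM in monolayer. Col15a1 and Col26a1 rose as well (3.51 and 5.96).

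Enzymes that modify collagen were divided, with 8 of 26 higher, 17 lower and 1 not passing. The cross-linking lysyl oxidases fell, Lox with 537, 543 and 550.2 in spheres, against 4441, 4532 and 4551 CPM in monolayer. Loxl3 fell to 20.6 ± 0.845 in spheres, against 514 ± 18.3 CPM in monolayer. The prolyl hydroxylase gene P4ha3 fell by 8.95. The prolyl 3-hydroxylase gene P3h2 rose to 61.2 ± 3.28 in spheres, against 0.325 ± 0.137 CPM in monolayer, and the propeptidase genes Adamts14 and Adamts2, which trim procollagen, rose by 3.19 and 1.28. Small leucine-rich proteoglycans, which bind and space collagen fibrils, fell in 9 of 11 cases with 1 higher and 1 not passing (median -5.07). Lumican (Lum) had 16.3, 18.4 and 17.4 in spheres, against 1108, 1168 and 1063 CPM in monolayer. Decorin (Dcn) had 43.9 ± 1.14 in spheres and 592 ± 29.1 CPM in monolayer. Prelp, with 40.7% of its span shared with other genes, had 0, 0 and 0.053 in spheres, against 176, 164 and 177 CPM in monolayer, a monolayer to sphere ratio of 8690 (2970 to 42200). All 3 were lower in every sphere library. Biglycan (Bgn), the member most tied to bone, fell by only 0.52 on the log2 scale (1739 ± 83.4 in spheres and 2500 ± 39.4 CPM in monolayer). Of 16 elastic fibre genes, 13 fell and 2 rose. The fibulin gene Efemp1 had 0.0984, 0.149 and 0.124 in spheres, against 266, 274 and 253 CPM in monolayer. Fbn1, fibrillin-1, fell to 37.1 ± 0.747 in spheres, against 613 ± 3.58 CPM in monolayer. Both lay wholly below the monolayer. Elastin itself (Eln) rose to 82.3 ± 3.19 in spheres, against 1.25 ± 0.225 CPM in monolayer. The TGF-beta binding gene Ltbp3 rose to 2955 ± 137 in spheres, against 411 ± 26.4 CPM in monolayer. Basement membrane genes fell in 14 of 15 cases. Lama1, the early embryonic laminin alpha chain, was the exception with 156, 157 and 157 in spheres, against 2.92, 2.12 and 2.2 CPM in monolayer. Lama2 fell to 12.1 ± 0.369 in spheres, against 811 ± 12.6 CPM in monolayer.

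Among matricellular genes, which adjust adhesion more than they build fibres, 9 of 23 rose and 13 fell. Thrombospondins 1 and 2 fell, Thbs1 with 19.9, 16.6 and 15.9 in spheres, against 4915, 4878 and 4900 CPM in monolayer, and Thbs2 by 7.53 on the log2 scale. The tenascin-W gene Tnn fell by 8.44. Wisp1, a Wnt-induced member of the CCN family, rose (1262 ± 9.89 in spheres and 97.1 ± 1.05 CPM in monolayer), whereas Wisp2 fell (13.2 ± 1.11 in spheres and 838 ± 52.5 CPM in monolayer). Proteoglycan cores gave 5 higher and 7 lower of 16 (75% called, against 78% of all genes tested), or 8 and 6 with total-count scaling. Sdc3 and Gpc1 (with 47.7% of its span shared with other genes) rose by 2.74 and 2.20 on the log2 scale. Gpc3 (with 22.2% of its span shared with other genes) and Gpc6 fell by 6.20 and 2.62. Hyaluronan synthase 2 (Has2) fell to 0.0835 ± 0.0359 in spheres, against 8.96 ± 0.89 CPM in monolayer, while the hyaluronidase gene Cemip rose by 1.34. Of the matrix proteases and inhibitors 10 of 33 rose and 22 fell. Mmp16, a membrane-bound protease, had 219.8, 216 and 210.4 in spheres, against 3.09, 3.39 and 3.03 CPM in monolayer. The collagenase gene Mmp13 fell to 13.9 ± 0.931 in spheres, against 704 ± 39.7 CPM in monolayer.

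Receptors and adaptors of cell-matrix adhesion were mostly lower. Of 29 integrin genes 18 were lower, 9 higher and 2 not passing. Itga8, whose pair with Itgb1 binds fibronectin and nephronectin, had 0.541, 0.521 and 0.459 in spheres, against 694, 716 and 664 CPM in monolayer. Itga11, a collagen receptor of fibroblasts, had 0.861, 1.23 and 1.31 in spheres, against 391, 373 and 394 CPM in monolayer. A different collagen receptor, Itga2, had 97.4, 90.3 and 89.6 in spheres, against 0.453, 0.463 and 0.388 CPM in monolayer. Of these collagen receptors, 1 was lower and 1 higher in every sphere library. The laminin receptor gene Itga6 rose to 26.5 ± 0.875 in spheres, against 3.4 ± 0.344 CPM in monolayer. The shared beta chain Itgb1 fell by 0.76 on the log2 scale. All 27 tested focal adhesion genes were lower (median -1.18), although with total-count scaling 25 were lower and 1 higher. The tensin gene Tns1 had 139, 141 and 140.2 in spheres, against 2073, 1940 and 2109 CPM in monolayer. Palladin (Palld) had 7.06 ± 0.768 in spheres and 313 ± 21.2 CPM in monolayer. The cross-linker gene Actn1 had 149.8 ± 4.86 in spheres and 804 ± 7.53 CPM in monolayer; Ptk2, focal adhesion kinase, changed by -0.15, the member that turned upward. All 17 smooth muscle contractile genes were lower under both scalings (median -3.77), among them the light chain gene Myl9 with 0.0984, 0.391 and 0.176 in spheres, against 137, 127 and 141 CPM in monolayer. The tropomyosin gene Tpm2 had 6.2 ± 0.544 in spheres and 161 ± 2.37 CPM in monolayer.

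Of 13 cadherin genes, 7 were higher and 3 lower (76.9% called, against 78% of all genes tested). The major osteoblast cadherin Cdh11 did not pass (1526 ± 13.7 in spheres and 1462 ± 28.1 CPM in monolayer, adjusted p = 0.0833, or 0.0357 without monolayer replicate 2), although it passed upward with total-count scaling and in the fit over all 9 libraries (log2 change 0.40 and 0.0903), and N-cadherin (Cdh2) fell by 1.00 on the log2 scale. Cdh23 had 171, 178 and 178 in spheres, against 0.108, 0.0488 and 0.155 CPM in monolayer. Cdh4 (R-cadherin) had 87.5, 95.8 and 96 in spheres, against 0.0864, 0.0732 and 0.0259 CPM in monolayer, a ratio of 1470 (748 to 3420). All sphere libraries of these genes lay above the monolayer. Cdh6 rose to 49.5 ± 1.35 in spheres, against 2.06 ± 0.166 CPM in monolayer. Cdh13, the lipid-anchored T-cadherin, fell to 0.651 ± 0.354 in spheres, against 113 ± 0.136 CPM in monolayer. Every sphere library lay above the monolayer for Cdh6 and below it for Cdh13. The channel gene Gja1, connexin 43, rose to 1384 ± 48.7 in spheres, against 450.3 ± 7.42 CPM in monolayer. The bone pannexin gene Panx3 rose to 62.2 ± 3.29 in spheres, against 5.67 ± 0.594 CPM in monolayer, while Gjc1 fell by 1.76. Of 7 tested claudins, genes of tight junctions, 5 were higher and 2 lower (median 1.84), and Cldn1 fell to 0.371 ± 0.00177 in spheres, against 86.8 ± 3.38 CPM in monolayer.

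The list of the stiffness-sensing factors YAP and TEAD and their targets gave 12 lower, 5 higher and 2 not passing of 19. Yap1 and Wwtr1, the factors themselves, rose by 0.26 and 0.24, while their DNA-binding partners Tead1 and Tead4 fell by 1.96 and 2.31. Ankrd1 had 0, 0 and 0 in spheres, against 10.7, 12.9 and 11.3 CPM in monolayer, at least 586-fold lower. Amotl2, which restrains YAP, had 12.7, 13.5 and 12.1 in spheres, against 909.5, 860.2 and 929 CPM in monolayer. Cyr61, a matricellular target, had 26.2, 25 and 25.5 in spheres, against 1003, 998 and 1026 CPM in monolayer. All of these were lower in every sphere library. Ctgf, another standard target with 51.4% of its span shared with other genes, went the other way (0.61), as did Fjx1 (263 ± 27.5 in spheres and 7.6 ± 0.502 CPM in monolayer). The letters GGAATG, the TEAD binding core, were searched on either strand of the RefSeq window. That window runs from 250 bases before to 50 bases after the start. They were found for 10 of the 12 tested list genes with a window (83.3%), against 14.6% of 10866 tested genes with a window. Matched genes included Yap1 and Wwtr1, which rose, and others that did not pass, so the share is not one of lowered genes alone. Among the focal adhesion genes the letters were matched in 6 of 20 with a window (30%). The 150 bases before the start are printed for Ankrd1 and Amotl2, the members with the largest falls that hold a match in them, 5′ to 3′ on the strand of the gene from GRCm38.p6, with the match in capitals (chr19:36119845-36119994, minus strand; chr9:102717654-102717803, plus strand).
Ankrd1: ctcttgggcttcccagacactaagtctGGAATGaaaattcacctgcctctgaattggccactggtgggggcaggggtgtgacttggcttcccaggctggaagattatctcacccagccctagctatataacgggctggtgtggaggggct
Amotl2: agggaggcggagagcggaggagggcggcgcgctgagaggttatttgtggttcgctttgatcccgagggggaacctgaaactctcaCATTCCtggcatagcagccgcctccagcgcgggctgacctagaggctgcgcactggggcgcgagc
Ankrd1 holds the motif as written and Amotl2 holds its reverse complement nearer to the start. A match of so few letters is a description and not a bound site.

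Interferon-stimulated genes were lower throughout: all 35 tested, under both scalings, with a median log2 change of -4.68. Cells that sense type I interferon activate transcription factors that bind a shared response element. Irf9, the gene of one of these factors, fell by 2.76 on the log2 scale. Among the targets, Isg15, a ubiquitin-like protein, had 0.295, 0.466 and 0.565 in spheres, against 114, 109.5 and 116 CPM in monolayer. Ifit1, which binds viral RNA, had 0.664, 0.335 and 0.671 in spheres, against 171, 171 and 154 CPM in monolayer. All sphere libraries lay below 1 CPM for both. The synthetase gene Oas3 had 0.0738, 0.0186 and 0.053 in spheres, against 70.2, 69.8 and 72.9 CPM in monolayer. In spheres it was at a few counts, and the ratio of monolayer to sphere was 1530 (742 to 3810). The element's letters GAAANNGAA were present in either orientation in the windows of 15 of 24 tested list genes (62.5%), against 8.6% of all tested genes with a window. Stretches of 3 such genes are printed because this element is the one known to carry the interferon response; capitals mark each match, and overlapping matches run together (chr4:156200819-156200968, minus strand; chr19:34640739-34640888, plus strand; chr12:26456453-26456602, minus strand).
Isg15: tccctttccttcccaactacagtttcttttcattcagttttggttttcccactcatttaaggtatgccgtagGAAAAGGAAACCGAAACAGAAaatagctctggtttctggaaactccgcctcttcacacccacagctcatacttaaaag
Ifit1: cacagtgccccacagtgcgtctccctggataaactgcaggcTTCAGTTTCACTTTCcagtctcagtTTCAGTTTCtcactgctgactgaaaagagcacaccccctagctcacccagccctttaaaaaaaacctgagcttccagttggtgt
Rsad2: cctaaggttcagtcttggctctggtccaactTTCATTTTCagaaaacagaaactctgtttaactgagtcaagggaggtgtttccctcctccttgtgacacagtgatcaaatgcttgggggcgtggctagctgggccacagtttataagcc
Isg15 carries overlapping copies in the forward orientation, and Ifit1 carries 2 blocks in the reverse orientation. Rsad2, the antiviral viperin gene, carries 1 reverse match and had 0.0738, 0.0745 and 0.0883 in spheres, against 1.94, 2.46 and 2.51 CPM in monolayer, lower in spheres and under 3 CPM in both.

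Genes of antigen presentation by MHC class I were lower in 15 of 16 cases and higher in 1 (median -2.69). The classical heavy chain gene H2-K1 fell to 129.8 ± 2.84 in spheres, against 597 ± 36 CPM in monolayer, and H2-D1 fell by 1.79 on the log2 scale, although such paralogs can share reads. The peptide transporter gene Tap1 had 7.72, 8.87 and 8.19 in spheres, against 131, 128 and 133 CPM in monolayer. The immunoproteasome subunit gene Psmb9 had 0.235 ± 0.15 in spheres and 6.92 ± 0.382 CPM in monolayer, whereas 27 of 37 proteasome subunit genes as a whole were higher and 5 lower. The motif above was matched in 3 of 14 of these antigen presentation genes (21.4%), among them Erap1, the 1 that was higher. Complement genes fell in 8 of 10 cases, C1ra with 0.32 ± 0.117 in spheres and 82.3 ± 0.316 CPM in monolayer. Of the chemokines and cytokines 4 of 15 rose and 8 fell. The stem cell factor gene Kitl fell to 1.46 ± 0.189 in spheres, against 179 ± 11.8 CPM in monolayer. Its receptor gene Kit rose to 124 ± 3 in spheres, against 39.2 ± 2.14 CPM in monolayer. Ligand and receptor genes moved in opposite directions. Cxcl12 fell to 10.1 ± 0.798 in spheres, against 110.4 ± 1.4 CPM in monolayer. Cx3cl1, fractalkine, rose to 34.1 ± 1.86 in spheres, against 4.74 ± 0.0706 CPM in monolayer.

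**Figure D3:**
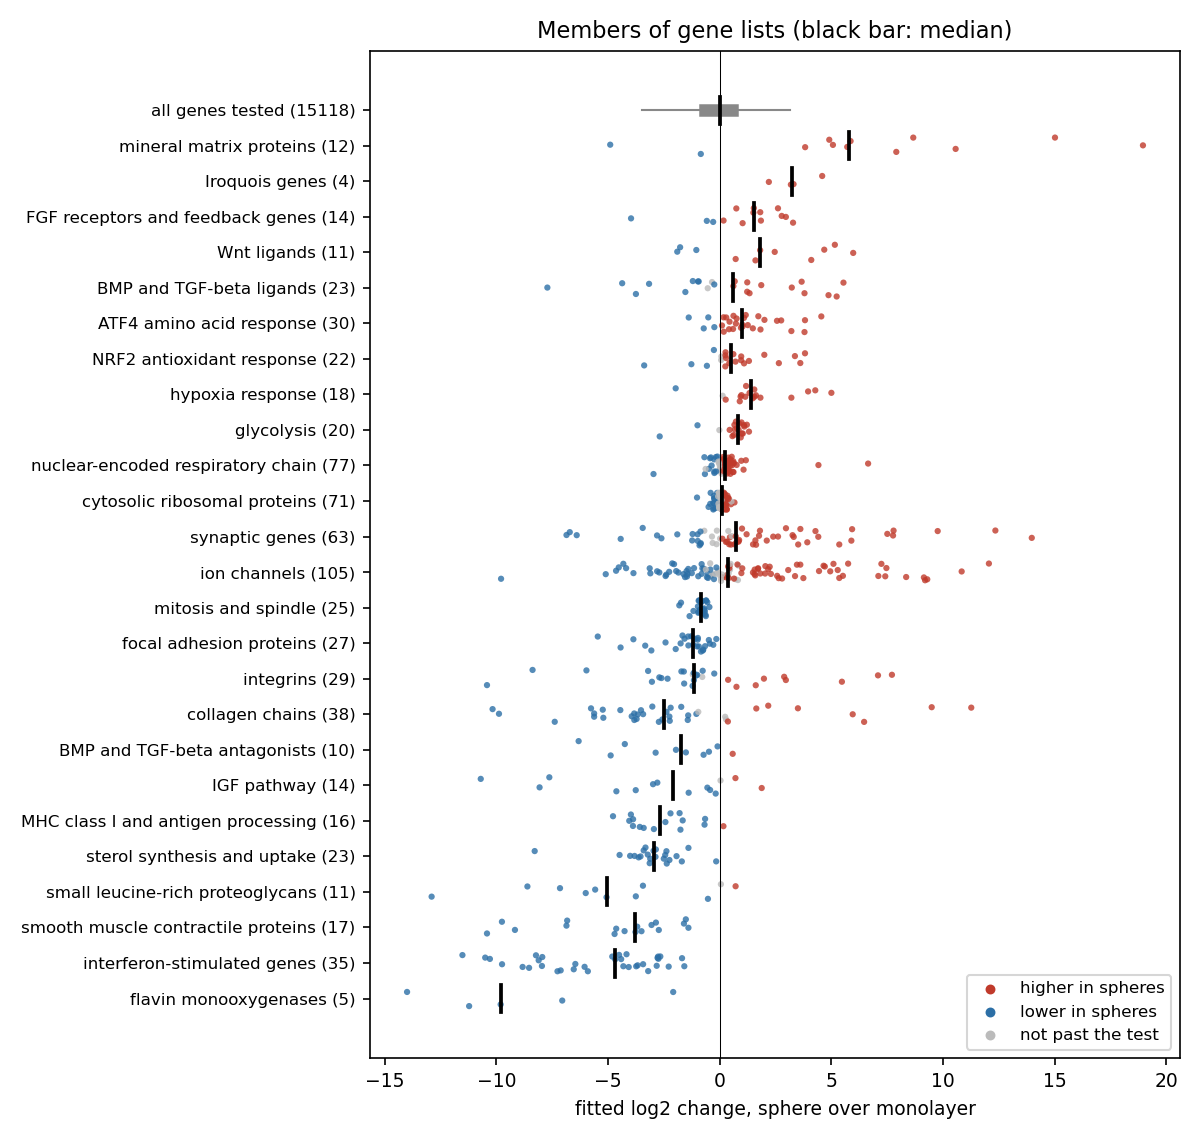
Fitted log2 change of sphere over monolayer for each tested member of 25 gene lists (points, red higher, blue lower, grey not passing), with the number of members in brackets and the median as a black bar; for all genes tested the thick and thin lines span the middle 50% and 90% of genes. Interferon, contractile and sterol genes lie wholly on the lower side, although with total-count scaling 1 of the sterol genes was higher, and the Iroquois genes on the higher side.

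Morphogens are secreted ligands whose action is set by receptors, extracellular antagonists and feedback genes. Among BMP and TGF-beta ligands 12 of 23 rose and 9 fell. Bmp2 had 304, 339 and 357 in spheres, against 26.1, 24 and 28.3 CPM in monolayer. Bmp7 had 461, 482 and 495 in spheres, against 52.7, 46.9 and 53.6 CPM in monolayer. Bmp3, the bone BMP with inhibitory action, had 286, 293 and 296 in spheres, against 6.78, 5.63 and 6.24 CPM in monolayer. Each lay wholly above the monolayer. Bmp4 (with 25.9% of its span shared with other genes) fell by 0.94 and Tgfb3 (with 27.6% of its span shared with other genes) fell by 3.16. Of their secreted antagonists 9 of 10 fell. Gremlin 1 (Grem1) had 8.83, 7.41 and 7.77 in spheres, against 632, 659.8 and 609.8 CPM in monolayer. Follistatin-like Fstl1 had 75.2 ± 2.44 in spheres and 1427 ± 39.6 CPM in monolayer. Follistatin (Fst) had 0.828 ± 0.157 in spheres and 24.1 ± 0.916 CPM in monolayer. All 3 were lower in every sphere library. Noggin (Nog) alone rose, by 0.58 at low levels. Twsg1, at -0.093, turned upward with total-count scaling and did not pass without monolayer replicate 1 or without sphere replicate 1 or 2 (adjusted p = 0.0632 to 0.118). Target genes rose in 8 of 11 cases, among them the pseudoreceptor gene Bambi with 745, 826 and 837 in spheres, against 19.8, 18.4 and 19.6 CPM in monolayer. Id1 had 167 ± 13.2 in spheres and 32.2 ± 1.27 CPM in monolayer; Id3 fell (log2 change -0.56). The type I receptor gene Acvr1c, chosen after its values were seen, had 67.7 ± 3.23 in spheres and 0.0785 ± 0.0239 CPM in monolayer, a ratio of 851 (462 to 1770).

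Of 11 Wnt ligand genes, 8 rose and 3 fell (median 1.81). Wnt5a, a ligand of the non-canonical branch, was the most abundant with 1203, 1193 and 1214 in spheres, against 394, 402 and 392 CPM in monolayer. Wnt11, Wnt7b and Wnt10b rose by 5.16, 5.98 and 4.10 on the log2 scale. Receptors were split, 7 higher and 6 lower of 15, with a median of -0.022 that became 0.31 with total-count scaling. The Fzd1 and Fzd2 genes fell by 2.28 and 2.58 and Fzd7 rose by 1.16. Ror1, a receptor for Wnt5a, fell to 0.809 ± 0.0669 in spheres, against 36 ± 1.32 CPM in monolayer. The co-receptor genes Lrp6 and Lrp5 differed: Lrp6 did not pass (adjusted p = 0.554) and Lrp5 had a log2 change of 0.72. R-spondin receptors rose, Lgr6 with 608, 613 and 632 in spheres, against 4.73, 5.75 and 4.74 CPM in monolayer. Lgr4 rose by 2.90. The R-spondin genes Rspo2 and Rspo4 fell (-5.54 and -1.47). Secreted antagonists were split, 6 higher and 6 lower of 12. Wif1 rose to 151 ± 2.62 in spheres, against 9.74 ± 1.09 CPM in monolayer. Frzb rose to 47.9 ± 1.24 in spheres, against 4.56 ± 0.591 CPM in monolayer. The Wnt deacylase gene Notum, with 71.6% of its span shared with other genes, rose to 28.9 ± 1.33 in spheres, against 0.0254 ± 0.0259 CPM in monolayer, a ratio of 1220 (417 to 5910). All 3 were higher in every sphere library. Sfrp1 fell to 3.88 ± 0.74 in spheres, against 354 ± 4.96 CPM in monolayer. Dkk3 fell to 139 ± 2.83 in spheres, against 1775 ± 15.2 CPM in monolayer. The feedback genes Axin2 and Znrf3 rose by 0.78 and 2.08.

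In the FGF list of receptors and feedback genes 11 of 14 were higher and 3 lower (median 1.52). Spry4, an inhibitor induced by FGF, had 308, 311 and 313 in spheres, against 40.5, 38.8 and 39.9 CPM in monolayer. The ERK phosphatase gene Dusp6 had 269.6, 278 and 281 in spheres, against 40.2, 39.7 and 40.7 CPM in monolayer. Both were higher in every sphere library. The ETS factor gene Etv4 rose to 48.6 ± 1.61 in spheres, against 4.98 ± 0.479 CPM in monolayer. The members that fell were all receptors. Fgfr2, with 58.2% of its span shared with other genes, had 28.8, 27.8 and 28.4 in spheres, against 438, 441 and 449.5 CPM in monolayer. Fgfrl1 fell by 0.57 on the log2 scale, and Fgfr3 had a log2 change of -0.29, which turned upward without passing with total-count scaling. Fgfr1 rose to 1750 ± 74.2 in spheres, against 857 ± 45.4 CPM in monolayer. Of 24 immediate early genes, transcribed within minutes of a stimulus, 13 rose and 8 fell. Egr3 had 299.7, 308 and 312 in spheres, against 0.367, 0.414 and 0.466 CPM in monolayer. Junb had 196 ± 16.5 in spheres and 48 ± 3.54 CPM in monolayer. Both were higher in every sphere library. Klf2, a factor also induced by flow, fell to 16 ± 1.66 in spheres, against 85.8 ± 12 CPM in monolayer. Dusp1 fell to 13.5 ± 1.5 in spheres, against 148 ± 7.79 CPM in monolayer.

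In the Notch list 9 of 19 rose and 7 fell. The ligand gene Jag2 had 44, 49.1 and 49 in spheres, against 0.626, 0.854 and 0.854 CPM in monolayer. The target genes Hes1 and Hey1 rose by 3.22 and 4.29. Jag1 and the receptor gene Notch3 (with 45.6% of its span shared with other genes) fell by 0.85 and 2.22. Hedgehog genes gave 3 higher and 6 lower of 11, with a median of -0.23 that became 0.11 with total-count scaling. The receptor gene Ptch1, which is also a target, rose by 2.48 on the log2 scale, and the ligand gene Ihh rose to 8.06 ± 1.12 in spheres, against 0.149 ± 0.0882 CPM in monolayer. The effector gene Gli2 and the co-receptor gene Gas1 (with 23.1% of its span shared with other genes) fell by 1.91 and 1.90. The IGF list fell in 11 of 14 cases. Igf1 had 1.03, 1.06 and 1.2 in spheres, against 297, 314 and 279 CPM in monolayer. The protease gene Pappa2 had 0.0492, 0.0745 and 0.0353 in spheres, against 90.8, 94.2 and 92 CPM in monolayer, a monolayer to sphere ratio of 1740 (884 to 4040). Both genes lay wholly below the monolayer. The binding protein gene Igfbp4 fell to 50.2 ± 1.9 in spheres, against 1241 ± 65.1 CPM in monolayer. Igfbp5 rose to 82.4 ± 1.76 in spheres, against 22.4 ± 0.778 CPM in monolayer. Vascular growth factors moved both ways, with 5 of 15 higher and 9 lower. Pdgfa rose to 391 ± 11.4 in spheres, against 34.7 ± 1.51 CPM in monolayer. Vegfa rose to 158 ± 6.03 in spheres, against 82.3 ± 5.24 CPM in monolayer. Both were higher in every sphere library, and the next pair lower. Vegfd fell to 1.91 ± 0.393 in spheres, against 417 ± 16.9 CPM in monolayer. Angpt1 fell to 1.18 ± 0.343 in spheres, against 49.7 ± 2.07 CPM in monolayer. Of the neurotrophic genes 7 of 17 rose and 8 fell, or 9 and 5 with total-count scaling. Gfra1, the GDNF receptor, had 152, 152 and 161 in spheres, against 0.0864, 0.0975 and 0.129 CPM in monolayer. Its ligand gene Gdnf had 14.4 ± 1.02 in spheres and 1.12 ± 0.156 CPM in monolayer. Its signalling partner Ret was at 0.764 ± 0.473 in spheres and 1.57 ± 0.318 CPM in monolayer and did not pass with total-count scaling (adjusted p = 0.0554).

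Of 57 axon guidance genes, which also steer nerves into the pulp, 20 rose and 30 fell, against 25 and 26 with total-count scaling. Sema7a had 433, 425 and 430.2 in spheres, against 8.18, 8.54 and 7.66 CPM in monolayer. Sema4d, which like Sema7a is expressed in bone, rose to 194 ± 3.3 in spheres, against 3.74 ± 0.603 CPM in monolayer. The netrin receptor gene Unc5b rose to 2984 ± 94.6 in spheres, against 672 ± 41.1 CPM in monolayer. Each of these was higher in every sphere library. Sema3b fell to 10.8 ± 0.919 in spheres, against 311 ± 16.1 CPM in monolayer. Sema3a, a repellent for sensory axons, fell to 16.9 ± 0.413 in spheres, against 86.2 ± 5.88 CPM in monolayer. Ephb3 fell to 16.9 ± 1.32 in spheres, against 272 ± 18.6 CPM in monolayer.

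Ion channel and synaptic genes included some of the largest increases. Of 105 channel genes 51 rose, 38 fell and 16 did not pass (median 0.38). The silent potassium channel subunit gene Kcng1 had 758, 794 and 817 in spheres, against 0.0864, 0.293 and 0.181 CPM in monolayer. Kcnma1, the large-conductance calcium-activated potassium channel, had 297, 301 and 287 in spheres, against 0.151, 0.195 and 0.129 CPM in monolayer. The calcium-activated chloride channel gene Ano1 had 335, 336 and 338 in spheres, against 1.99, 1.95 and 1.73 CPM in monolayer. All 3 lay wholly above the monolayer. The T-type calcium channel gene Cacna1g went the other way with 8.07, 9.09 and 9.48 in spheres, against 228, 208 and 232 CPM in monolayer. Of 63 synaptic genes 39 rose, 16 fell and 8 did not pass (median 0.72). Gad2, which makes the transmitter GABA, had 42.6, 42.5 and 45.8 in spheres, against 0, 0 and 0 CPM in monolayer, at least 1831-fold higher. The vesicle fusion gene Snap25 had 15, 12.9 and 14.4 in spheres, against 0, 0 and 0 CPM in monolayer, at least 593-fold higher. The kainate receptor gene Grik2 rose to 92.3 ± 2.47 in spheres, against 0.106 ± 0.0553 CPM in monolayer. Of 10 glial and neuronal markers only 2 had enough counts to be tested. The myelin gene Mbp was 1 of them (1.56 ± 0.124 in spheres and 25.9 ± 1.27 CPM in monolayer), and the neuronal genes Rbfox3, Elavl3 and Elavl4 were not tested. Solute carriers gave 112 higher and 86 lower of 231 (85.7% called, against 78% of all genes tested), or 142 and 64 with total-count scaling. The amino acid transporter gene Slc7a8 rose to 228 ± 4.18 in spheres, against 2.96 ± 0.278 CPM in monolayer. The monocarboxylate transporter gene Slc16a12 rose to 43.6 ± 0.75 in spheres, against 0.0421 ± 0.0392 CPM in monolayer, a ratio of 1100 (470.0 to 3380). The prostaglandin transporter gene Slco2a1 fell to 2.63 ± 0.658 in spheres, against 235 ± 2.82 CPM in monolayer.

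All 23 tested genes of sterol synthesis and uptake were lower (median -2.96), although with total-count scaling 22 were lower and 1 higher. Hmgcs1, an early enzyme of the pathway (with 34.6% of its span shared with other genes), had 38.2, 38.5 and 36.1 in spheres, against 389, 416 and 388 CPM in monolayer. Its sphere libraries all lay below the monolayer. Srebf2, the factor that drives the pathway when sterols are low, fell to 199 ± 5.88 in spheres, against 525 ± 27.4 CPM in monolayer. The element that the Srebf2 product binds, searched as TCACNCCAC, was matched in 1 of 15 of these genes (6.67%) and in 1.46% of all tested genes with a window. The matched gene was Hmgcs1, which is why its stretch is shown (chr13:119690201-119690350, plus strand).
Hmgcs1: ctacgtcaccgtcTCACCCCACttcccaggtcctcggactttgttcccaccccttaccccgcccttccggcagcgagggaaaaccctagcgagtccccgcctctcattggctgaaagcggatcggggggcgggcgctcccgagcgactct
Of 17 genes of fatty acid synthesis, 14 fell and 2 rose. The same element was matched in 0 of 14 genes of this list with a window. The desaturase genes Fads1, Fads2 and Fads3, neighbours on chromosome 19, fell by 2.28, 2.35 and 3.07, and the desaturase gene Scd1 rose by 0.43. Adipogenic and lipid storage genes gave 9 higher and 4 lower of 13 (median log2 change 0.98, range -6.28 to 11.9). The lipid droplet gene Plin2 rose to 695 ± 10.8 in spheres, against 166 ± 4.36 CPM in monolayer. Plin4 fell to 2.48 ± 0.481 in spheres, against 196 ± 8.71 CPM in monolayer. Pparg, the adipocyte factor, fell to 5.93 ± 0.124 in spheres, against 67.8 ± 2.48 CPM in monolayer.

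Of 20 glycolysis genes, 17 rose and 2 fell (median 0.81). Lactate dehydrogenase A (Ldha) had 689, 685 and 685 in spheres, against 279, 269 and 280.2 CPM in monolayer. The glucose transporter gene Slc2a1 rose to 35.2 ± 1.23 in spheres, against 15.1 ± 0.745 CPM in monolayer. Slc2a3 fell to 15.6 ± 0.42 in spheres, against 31 ± 0.589 CPM in monolayer. Genes of the hypoxia response rose in 16 of 18 cases with 1 lower (median 1.41): the stress hormone gene Stc2 had 93, 92.3 and 93.2 in spheres, against 10.3, 9.39 and 10.3 CPM in monolayer. The mTOR inhibitor gene Ddit4 had 399.6 ± 25.7 in spheres and 113 ± 6.31 CPM in monolayer, and the angiogenic gene Vegfa is given above. The core ACGTG bound by hypoxia-inducible factors was matched in 11 of 15 genes of that list (73.3%) and 12 of 19 glycolysis genes (63.2%), against 28.5% of all tested genes with a window. Matched genes included Car9 and Aldoc, which fell, and Bnip3, which did not pass, so these shares are not of raised genes alone. Ldha is shown because it belongs to glycolysis and holds several copies, some within CACGTG, which reads the same on both strands (chr7:46845654-46845803, plus strand).
Ldha: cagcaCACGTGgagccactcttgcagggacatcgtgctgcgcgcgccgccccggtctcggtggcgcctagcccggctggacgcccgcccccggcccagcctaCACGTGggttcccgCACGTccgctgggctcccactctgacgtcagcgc
Nuclear genes of the respiratory chain shifted by less, 54 higher and 13 lower of 77 (median 0.23), or 67 and 4 with total-count scaling. Cox4i2, an isoform of a cytochrome oxidase subunit typical of lung, had 45.7 ± 0.997 in spheres and 2.13 ± 0.347 CPM in monolayer. Cytosolic ribosomal protein genes lay close to the overall median (0.085), with 34 higher, 14 lower and 23 not passing of 71, or 62 and 3 with total-count scaling. Of these genes 67.6% were called, against 78% of all genes tested. Lysosomal genes gave 23 higher and 13 lower of 43 (35 and 4 with total-count scaling). The proton pump subunit gene Atp6v0d2 rose to 43 ± 2.04 in spheres, against 1.16 ± 0.0718 CPM in monolayer. All 5 tested flavin monooxygenase genes, enzymes that oxidise sulfur and nitrogen compounds, fell: Fmo1 had 0.615, 0.577 and 0.512 in spheres, against 493, 526 and 503 CPM in monolayer. Fmo2 had 0.221, 0.168 and 0.0353 in spheres, against 319.7, 336 and 310.5 CPM in monolayer. Both lay wholly below the monolayer. In the retinoid list, the retinoic acid hydroxylase gene Cyp26b1 rose to 164 ± 1.53 in spheres, against 19.1 ± 0.599 CPM in monolayer. The binding protein gene Crabp1 fell to 6.28 ± 0.802 in spheres, against 318 ± 8.47 CPM in monolayer.

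Of 30 genes of the amino acid response driven by ATF4, 26 rose and 4 fell (median 0.99). The cystine transporter gene Slc7a11 had 16.4, 15.5 and 13.8 in spheres, against 1.01, 1.15 and 1.06 CPM in monolayer. The pseudokinase gene Trib3 had 88.1, 95.1 and 92.3 in spheres, against 14.7, 14.8 and 17.1 CPM in monolayer. Their groups did not overlap. The serine synthesis gene Psat1 rose to 143 ± 2.52 in spheres, against 40.3 ± 1.45 CPM in monolayer. Asparagine synthetase (Asns) had 181 ± 5.9 in spheres and 80.7 ± 2.35 CPM in monolayer. Atf4 itself, whose control is mainly translational, rose by 0.17 on the log2 scale. The element TGATGNAA was matched in 9 of 27 of these genes (33.3%) and in 2.69% of all tested genes with a window. Matched genes included Pycr1 and Nupr1, which fell, so the share is not one of raised genes alone. The stretches of Asns, the classic gene of this element, and of Slc7a11, the member with the largest increase among those matched, are shown (chr6:7693210-7693359, minus strand; chr3:50443614-50443763, minus strand).
Asns: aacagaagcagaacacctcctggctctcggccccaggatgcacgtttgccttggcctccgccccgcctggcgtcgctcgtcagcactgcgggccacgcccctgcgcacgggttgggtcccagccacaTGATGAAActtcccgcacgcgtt
Slc7a11: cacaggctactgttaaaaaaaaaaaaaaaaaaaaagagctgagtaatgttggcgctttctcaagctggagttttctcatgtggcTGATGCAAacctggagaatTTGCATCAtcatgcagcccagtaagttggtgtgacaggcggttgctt
Asns holds 1 forward copy close to the start, and Slc7a11 holds a forward and a reverse copy. Genes of the NRF2 antioxidant response, which shares Slc7a11 with that list, gave 16 higher and 4 lower of 22. The quinone reductase gene Nqo1 had 225, 227 and 229 in spheres, against 18.7, 19.5 and 17.5 CPM in monolayer. Glutathione reductase (Gsr) had 470.3, 464 and 467 in spheres, against 45.7, 45.5 and 44.2 CPM in monolayer. Thioredoxin reductase (Txnrd1, with 22.9% of its span shared with other genes) rose to 455 ± 9.69 in spheres, against 114 ± 1.46 CPM in monolayer. These groups did not overlap. Gclc, a subunit of the glutathione-making enzyme, fell by 0.57. The chaperones of the endoplasmic reticulum did not share this shift: 6 of 21 were higher and 12 lower, but 13 higher and 3 lower with total-count scaling. Among heat shock genes, the mitochondrial chaperone gene Hspd1 rose by 1.43 and the small chaperone genes Cryab and Hspb1 fell by 4.77 and 3.46.

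**Figure D4:**
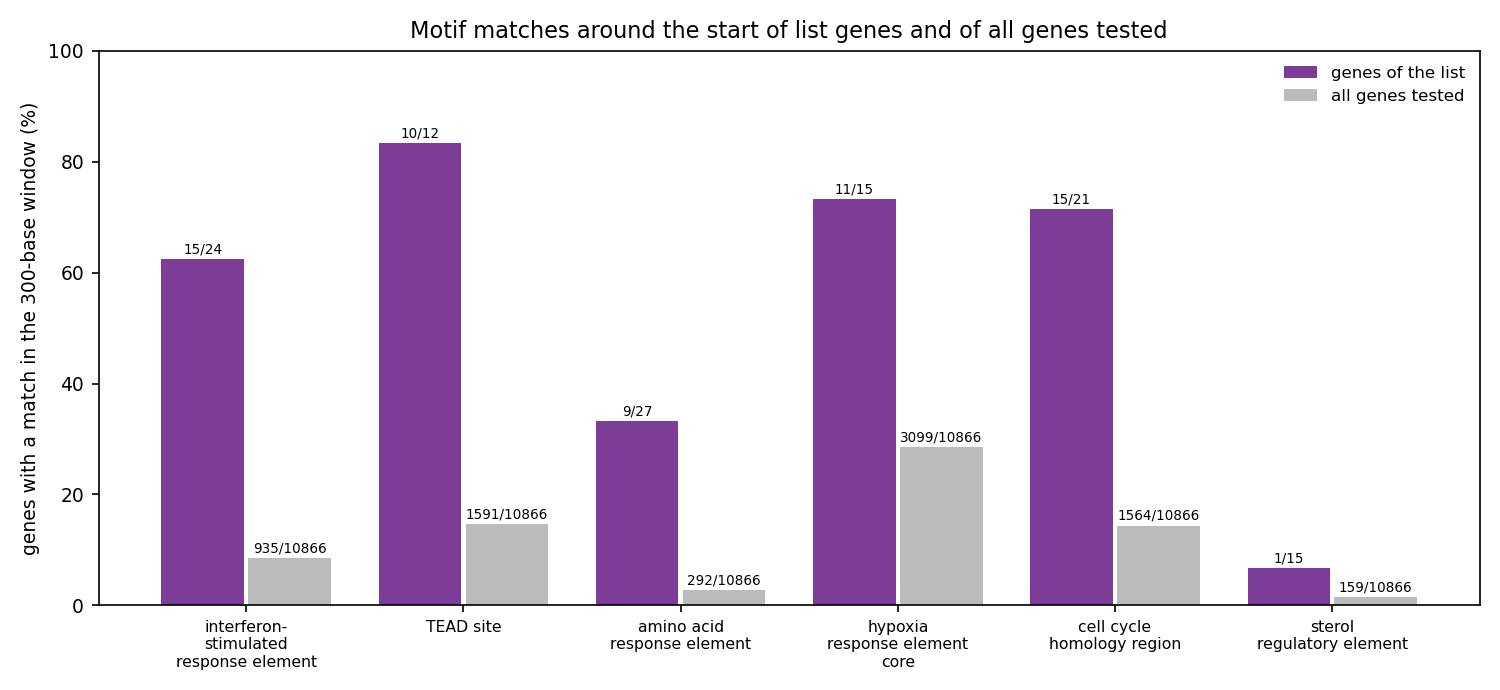
Share of genes, in percent, with at least 1 match of a motif on either strand in the RefSeq window from 250 bases before to 50 bases after the start, for the tested genes of 1 list (purple) and for all tested genes with a window (grey), with the counts above the bars. The lists are, from left to right, interferon-stimulated genes, YAP and TEAD targets, the ATF4 response, the hypoxia response, mitosis genes and sterol genes. The sterol element was matched in 1 gene. Other lists searched are not shown. Another motif searched, the CArG box, is not shown either. It was matched in 2 of 13 smooth muscle contractile, 2 of 20 focal adhesion and 2 of 19 immediate early genes, against 1.61% of all tested genes.

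Mitosis genes were lower by a modest amount: all 25 fell (median -0.83), of which 17 were lower and none higher with total-count scaling. The proliferation marker Mki67 had 8.66, 7.95 and 7.68 in spheres, against 15, 14.4 and 13.6 CPM in monolayer. Cdk1, the kinase that starts mitosis, had 4.45, 4.02 and 4.2 in spheres, against 15.3, 15.5 and 13.4 CPM in monolayer. The letters TTTGAA of the cell cycle homology region were matched in 15 of 21 mitosis genes (71.4%) and in 14.4% of all tested genes with a window; the stretch of Cdk1, the matched member with the largest fall, holds 2 copies (chr10:69352913-69353062, minus strand).
Cdk1: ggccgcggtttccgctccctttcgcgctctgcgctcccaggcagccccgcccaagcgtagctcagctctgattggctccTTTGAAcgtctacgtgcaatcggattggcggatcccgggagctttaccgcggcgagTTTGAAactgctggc
DNA replication genes were mixed, 5 higher, 14 lower and 7 not passing of 26 (median -0.29, or 0.044 with total-count scaling). The share called was 73.1%, against 78% of all genes tested. Both ribonucleotide reductase genes, which supply the building blocks of DNA, fell by far more than the rest: Rrm1 had 20.7, 23.1 and 24.2 in spheres, against 658, 678 and 648 CPM in monolayer. Rrm2 had 11, 11.1 and 12.1 in spheres, against 194, 202 and 204 CPM in monolayer. Pcna, the sliding clamp, rose by 0.76. Among cell cycle regulators 15 of 23 fell. Cyclin D1 (Ccnd1) fell to 113 ± 3.51 in spheres, against 469 ± 7.39 CPM in monolayer. The inhibitor genes Cdkn2b and Cdkn1c (with 32.9% of its span shared with other genes) fell by 2.37 and 4.55 on the log2 scale, while Rb1 (with 20.8% of its span shared with other genes) rose by 1.56.

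Some neighbouring genes changed together. In the order of tested genes along the chromosomes, 43 runs of at least 4 neighbours changed by 4-fold or more in the same direction. Of the runs, 14 went upward and 29 downward, and they held 208 genes, some of which overlap each other. Reads in a shared stretch may be missing from the counts of such genes. The 208 genes are 7.62% of the 2730 ordered genes that changed by that much. How many such runs would arise without any link between neighbours was not tested. The longest runs held 8 genes. The dentin and bone matrix run on chromosome 5, from 104070064 to 104441050, took in Sparcl1, Dspp, Dmp1, Ibsp, Mepe and Spp1 with 2 predicted genes, and the gene beyond it, Pkd2, changed by -0.40 and did not pass with total-count scaling. The Iroquois run on chromosome 8 joined Irx3, Irx5 and Irx6 with their non-coding neighbours Irx3os and Crnde. The run of keratin genes on chromosome 15 from Krt6b to Krt18 rose together but stayed at low levels, with Krt6a at 4.32 ± 0.484 in spheres and 0.469 ± 0.141 CPM in monolayer. Krt8 had 0.926 ± 0.209 in spheres and 0.00862 ± 0.0149 CPM in monolayer. Downward runs were formed by the 6 Oas genes on chromosome 5, flavin monooxygenase genes and the interferon-inducible Ifi200 genes on chromosome 1, the Gbp genes on chromosome 3, the Tap and Psmb genes of the MHC on chromosome 17, and Optc, Prelp and Fmod on chromosome 1. The imprinted domain on chromosome 12 held genes that moved in opposite directions: Dlk1, expressed from the paternal allele, had 33.3, 39.3 and 39.2 in spheres, against 0.0216, 0.0732 and 0.0517 CPM in monolayer, a ratio of 790.0 (363 to 2150). Meg3, a non-coding RNA expressed from the maternal allele, had 0.713, 1.08 and 0.953 in spheres, against 208, 209 and 219 CPM in monolayer. Rian, another such RNA, had 0.492, 0.615 and 0.406 in spheres, against 56.7, 60.1 and 56.4 CPM in monolayer. The sphere libraries were higher for Dlk1 and lower for Meg3 and Rian. Among all imprinted genes 4 of 19 rose and 13 fell, with Mest lower by 171-fold, Grb10 by 6.53-fold and Plagl1 by 10.5-fold in mean CPM.

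**Figure D5:**
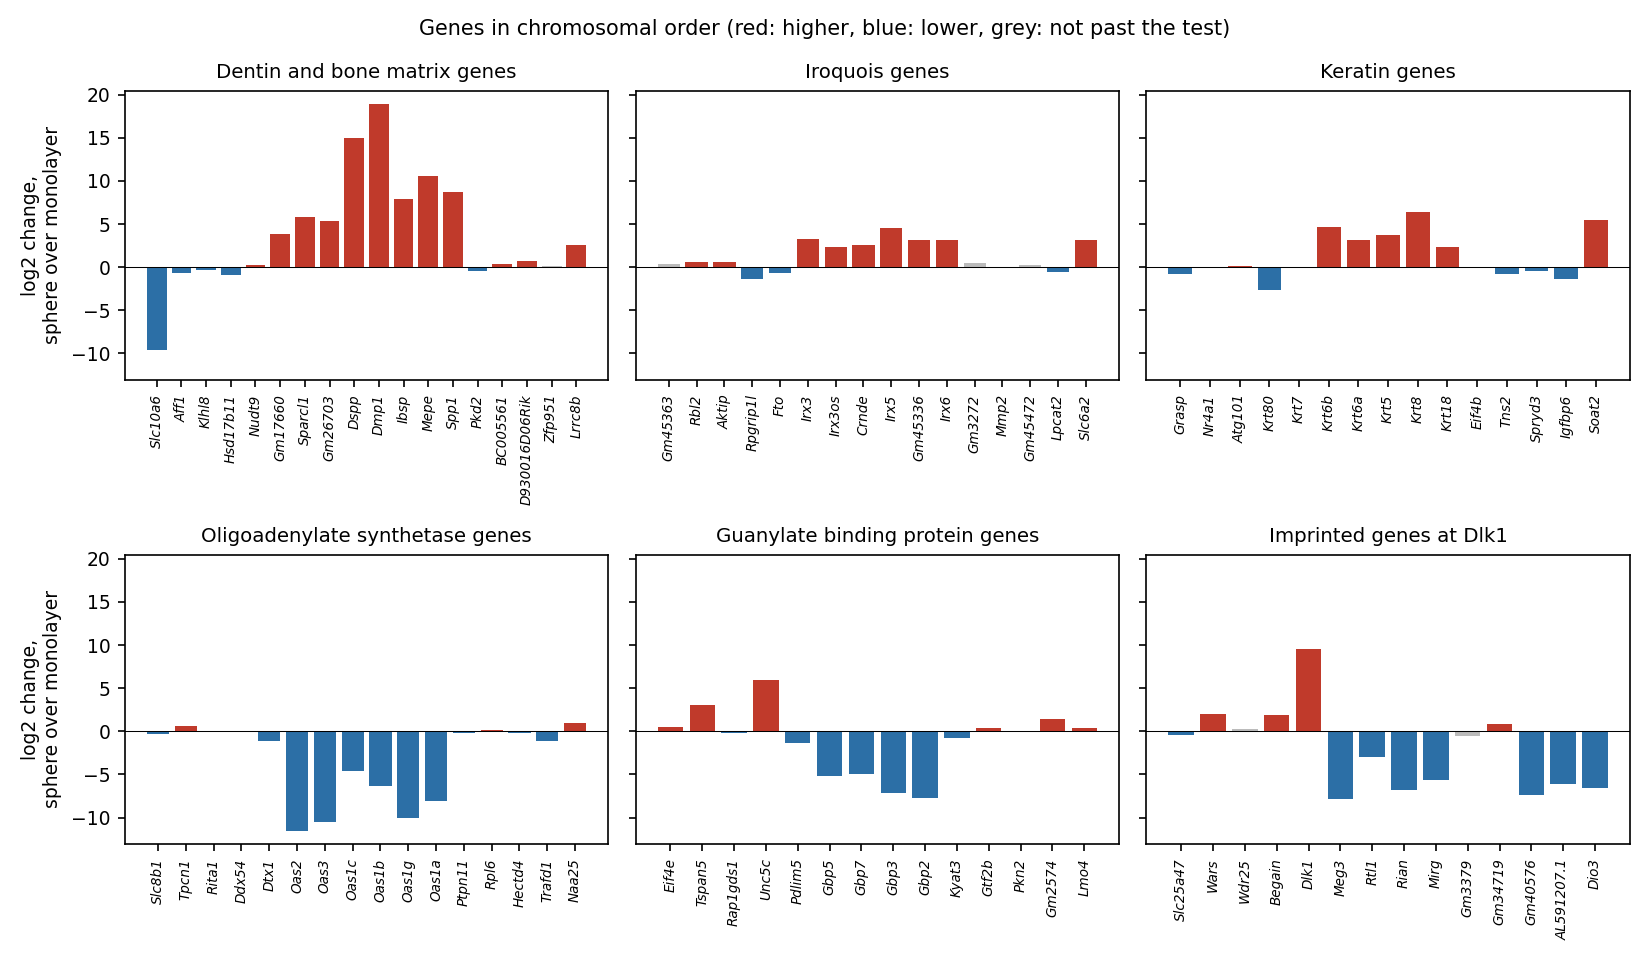
Fitted log2 change of sphere over monolayer for tested genes in chromosomal order, in 6 stretches with 5 flanking genes on each side (1 bar per gene, red higher, blue lower, grey not passing). On chromosome 5 the run ends with Spp1, and the gene after it, Pkd2, has a log2 change of -0.40.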

How the data were processed

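RNA from 3 sphere and 3 monolayer libraries was compared. The authors deposited raw counts per gene; per the submitters' processing notes, fastp 0.20.0, HISAT2 2.1.0 and featureCounts 1.6.0 were used with GRCm38. In the table each entry's length equals its whole span in 53245 of 53245 entries with 1 interval, so intronic reads count too. Of the entries, 12349 lie wholly inside another gene and hold essentially no counts, and the 37 mitochondrial entries hold none, so neither gets a level here. Where a gene shares part of its span with other genes, reads in that part may likewise be missing from its level. Strand use is not given in the sources used here.

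Genes were kept with filterByExpr (minimum count 10) and tested with edgeR 4.0.16 (R 4.3.3): TMM scaling, robust quasi-likelihood fit, Benjamini-Hochberg adjustment over all genes at 0.05, and glmTreat for 2-fold. Levels (CPM) are counts over TMM-scaled library size. DESeq2 1.42.0 and other settings served as alternatives.

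The gene lists and members were chosen with earlier results of these data known. Named genes are Cd24a, the 12 largest increases and decreases at 100 CPM or more, the 10 most abundant genes per group and, in each list, the largest changes at 10 CPM or more in either direction; some further members, Klk4, Acvr1c, the keratin genes of the run and Pkd2 were chosen after their values were seen, and some genes the rule names are not reported here. The 12 largest increases and decreases were taken only from genes past the threshold whose groups did not overlap. Whether replicate numbers pair the libraries is not stated in the labels, and the main fit did not pair them.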

Additional observations from a re-analysis of the deposited data

How the results depend on the processing

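Counts of changed genes kept within 1.5 times their values under every alternative run except the restriction to genes that overlap no other gene, which tests fewer genes by construction and gave 2966 higher and 2908 lower, with 952 and 1214 past the 2-fold test. With total-count scaling 8413 were higher and 3961 lower. A fit with a replicate block gave 5926 higher and 5804 lower (1856 and 2319 past 2-fold). The block changed the call of none of the 298 genes named in the text. Deviations of same-numbered libraries from their group means correlated by 0.002, 0.006 and 0.04. Whether equal numbers mark a shared source is not stated in the labels, and these values cannot decide it. DESeq2 gave 5730 and 5745. Leaving out each library in turn gave 5753 to 5960 higher and 5660 to 5835 lower, and past 2-fold 1864 to 1912 and 2292 to 2408.

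Among the 298 genes named, 10 changed sign, all with total-count scaling: Alpl (0.16), Ctsk (0.205), Eef1a1 (0.30), Fgfr3 (0.04361), Lrp6 (0.31), Mmp14 (0.05881), Mmp2 (0.26), Ptk2 (0.19), Runx2 (0.27) and Twsg1 (0.24); the scaling itself adds about 0.334 to every gene. Mmp2 also lost its call without sphere replicate 1 or 2 and without monolayer replicate 1 or 3, in the fit over all 9 libraries (adjusted p = 0.137) and with no filter on low counts (0.0629). Twsg1 lost its call in the fit over all 9 libraries (0.0728), and Ret, Trp63 and Pkd2 lost theirs with total-count scaling. Depth limits statements on genes with few counts in 1 group.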

Other observations

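Some symbols in the deposited table were altered: 19 contain the word sphere and 24 the word monolayer in place of other characters, and 11 read as dates. They were tested as given and not renamed.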
